A study of Mus musculus with 6 samples.

Results

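Pik3c3, Lrrk2 and Manba are 3 genes of delivery to the lysosome and of breakdown inside it, together called the pathway here. Each is represented by 1 probe set on the authors' deposited list of transcripts enriched in muscle spindle neurons. They were taken from that list by gene symbol, which gave 3 of its 626 probe sets, the array holding 45101. Probe sets off the list have no gene name here, so any others of these genes could not be seen. Each difference below therefore rests on 1 probe set. The arrays measured RNA of proprioceptive sensory neurons, the neurons of dorsal root ganglia that report muscle length and tension. Neurons supplying muscle spindles (MS) made up 3 samples and neurons supplying Golgi tendon organs (GTO) made up 3 samples, each on 1 array. All samples came from male and female mice on a mixed C57bl/129sv background between postnatal days 7 and 10, and all animals carried Egr3::WGA-cherry together with PV:Cre and Thy1-lsl-YFP. The MS samples were the sorted Cherry+YFP+ neurons, about 1250 per sample, and the GTO samples the Cherry-YFP+ neurons, about 725 per sample. Both sorts are described in the labels as enriched, not pure, and each sample pools neurons of several sorts. The class assignment therefore rests on the Cherry and YFP signal of the neurons, which does not by itself show that a neuron expresses Egr3. How many animals went into a pool is not stated in the sources used here.

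Autophagy wraps cytoplasm in a double membrane that then fuses with lysosomes, and endosomes deliver surface proteins to the same place. Pik3c3, also called Vps34, is the catalytic subunit of the class III phosphoinositide 3-kinase, which makes the lipid PI3P on forming autophagosomes and on early endosomes. Lrrk2 is a large kinase and GTPase that phosphorylates Rab proteins on endosomes and lysosomes, and its human counterpart is mutated in inherited Parkinson's disease. Manba is the lysosomal beta-mannosidase, an exoglycosidase that removes a mannose in one of the last steps of breaking down the sugar chains of glycoproteins. In sensory neurons, with their long axons, endosomes and autophagosomes formed in the periphery are carried back towards the cell body, where most mature lysosomes lie.

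RefSeq promoter sequences (GRCm38.p6) running from 250 bases before to 50 bases after the transcription start were matched for 2 of the 3 genes and are shown because the promoter is where the transcript of a gene begins to be made. Capitals mark the letters GGGCGG, a GC box, on the strand of the gene.
Lrrk2 (chr15:91672974-91673273, plus strand): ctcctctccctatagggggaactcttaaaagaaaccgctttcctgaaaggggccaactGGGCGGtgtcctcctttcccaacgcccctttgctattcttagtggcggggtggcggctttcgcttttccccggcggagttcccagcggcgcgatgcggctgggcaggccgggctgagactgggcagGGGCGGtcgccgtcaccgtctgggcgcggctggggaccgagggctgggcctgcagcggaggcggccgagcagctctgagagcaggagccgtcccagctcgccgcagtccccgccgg
Manba (chr3:135485361-135485660, plus strand): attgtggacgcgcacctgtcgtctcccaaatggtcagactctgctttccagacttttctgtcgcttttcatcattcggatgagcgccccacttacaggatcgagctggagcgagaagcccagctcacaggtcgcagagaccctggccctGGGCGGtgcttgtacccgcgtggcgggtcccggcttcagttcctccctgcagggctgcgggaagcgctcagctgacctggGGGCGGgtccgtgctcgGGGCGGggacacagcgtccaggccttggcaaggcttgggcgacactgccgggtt
The Lrrk2 promoter held 2 GC boxes and the Manba promoter 3, with both strands searched here and below and no overlap with another motif searched. GGGCGG occurred in 35.7% of the 32851 promoters of the table and in 8 of the 12 promoters of the members and of the other pathway genes described below. The GC share of the Lrrk2 promoter was 68.7% and that of Manba 64.3%, against a median of 52.7% over the table. Neither promoter held CACGTG, the core of the CLEAR element through which TFEB acts on many lysosomal genes, which occurred in 7.15% of the table. TATAAA, the TATA box, occurred in 13.6% of the table and in 0 of the 12 promoters. Such matches describe letters in a window of 300 bases and nothing more.

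The 3 members were selected on the same arrays and the same contrast that is described here, so their differences are given as values with no test. The authors' deposited table lists probe sets at least 5-fold higher in MS with a p-value below 0.08. Applied to all 45101 probe sets, that rule returned the same 626, which is 1.39%. Any probe set of a member that is off the list therefore fell short of the rule. In the authors' deposited table Pik3c3 has a fold of 66.8 (MS over GTO) and a p-value of 2.31e-06, Lrrk2 a fold of 21.1 and a p-value of 0.000227, and Manba a fold of 21.7 and a p-value of 4.72e-05. By p-value Pik3c3 stands at rank 1 of 626, Manba at rank 8 and Lrrk2 at rank 20, and by fold they stand at ranks 7, 77 and 87 in the same order. All 3 lie far inside the limits: the list's lowest fold, in the authors' deposited table, is 5.01 (Tom1) and its highest p-value 0.0795 (Wbp4). Just outside lay a probe set 4.9998-fold higher at a p-value of 0.074 and a probe set 30.2-fold higher at a p-value of 0.0801, neither with a gene name here.

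**Figure D1:**
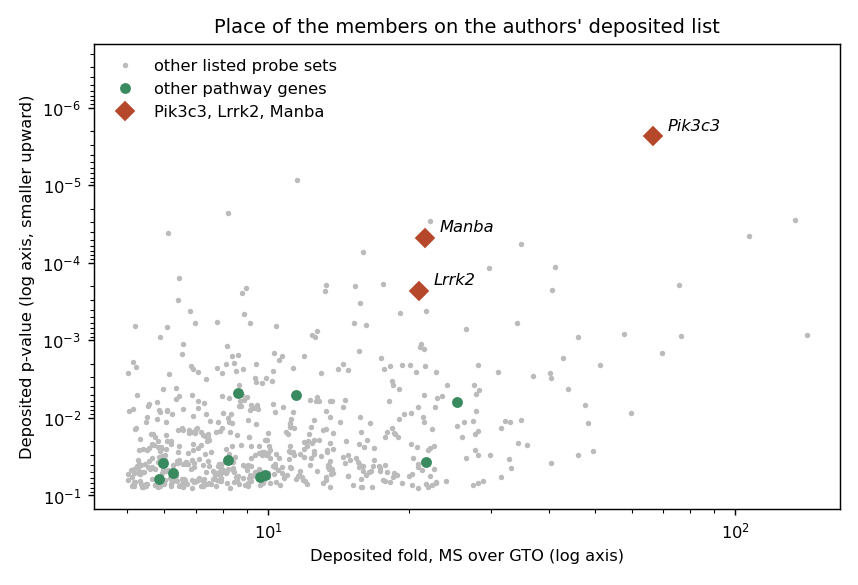
Each point is 1 of the 626 probe sets of the authors' deposited list, with its deposited fold (MS over GTO) on the horizontal log axis and its deposited p-value on the vertical log axis, smaller values upward. Diamonds mark Pik3c3, Manba and Lrrk2, circles the 10 other genes of the pathway lists, and Pik3c3 has the smallest p-value of the list at 2.31e-06.

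Signal was lower on the GTO arrays over the whole table, and the values below are as deposited, with no adjustment for this unless stated. The log2 values had an upper quartile of 6.78 to 6.86 on the MS arrays and 5.55 to 6.67 on the GTO arrays, lowest on GTO arrays 2 and 3 (exact permutation p = 0.1, two-sided, the smallest possible with 3 against 3). The median log2 difference over the 16256 probe sets tested, those reaching log2 4 on 3 or more arrays, was 0.31 in favour of MS. Log2 4 is used here as the floor of detection, and 27 bacterial spike-in control probe sets, which mark the background, read 1.86 to 2.89. Fewer neurons per sample, less RNA per neuron and the neuron class cannot be told apart in these pools.

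Pik3c3, the lipid kinase at the start of the pathway, had the largest separation of the 3. Its probe set 1425580_a_at read 9.58, 9.28 and 9.08 on MS arrays 1, 2 and 3, against 3.32, 3.16 and 3.28 on GTO arrays 1, 2 and 3 (log2). Every MS array was above every GTO array, with 5.76 between the lowest MS and the highest GTO value. The level averaged 9.31 ± 0.25 in MS and 3.25 ± 0.08 in GTO (SD, n = 3 each), a log2 difference of 6.06. As all GTO values lay below the floor, the fold is a lower bound: at least 39.8-fold higher in MS, the MS mean against log2 4. The GTO values were a little above the highest spike-in reading of 2.89 on all 3 GTO arrays. The 3 GTO values spanned 0.16, the narrowest range of the 3 members in either class.

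Lrrk2, the Rab kinase, read 6.76, 7.75 and 7.64 on MS arrays 1, 2 and 3, against 3.28, 2.82 and 2.85 on GTO arrays 1, 2 and 3 (log2, probe set 1431394_a_at). MS array 1 was the low one of its class, yet still 3.47 above the highest GTO value, which was on GTO array 1. The level averaged 7.38 ± 0.54 in MS and 2.98 ± 0.26 in GTO (SD, n = 3 each), a log2 difference of 4.40 and at least 10.4-fold higher in MS against the floor. Of the 3 GTO values, those of arrays 2 and 3 lay within the range of the spike-in controls and that of array 1 above it.

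Manba, the lysosomal beta-mannosidase, read 6.76, 7.32 and 7.34 on MS arrays 1, 2 and 3, against 2.42, 2.85 and 2.82 on GTO arrays 1, 2 and 3 (log2, probe set 1450626_at). All 3 GTO values lay within the range of the spike-in controls, and the lowest MS value was 3.90 above the highest GTO value. The level averaged 7.14 ± 0.33 in MS and 2.70 ± 0.24 in GTO (SD, n = 3 each), a log2 difference of 4.44 and at least 8.81-fold higher in MS against the floor.

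**Figure D2:**
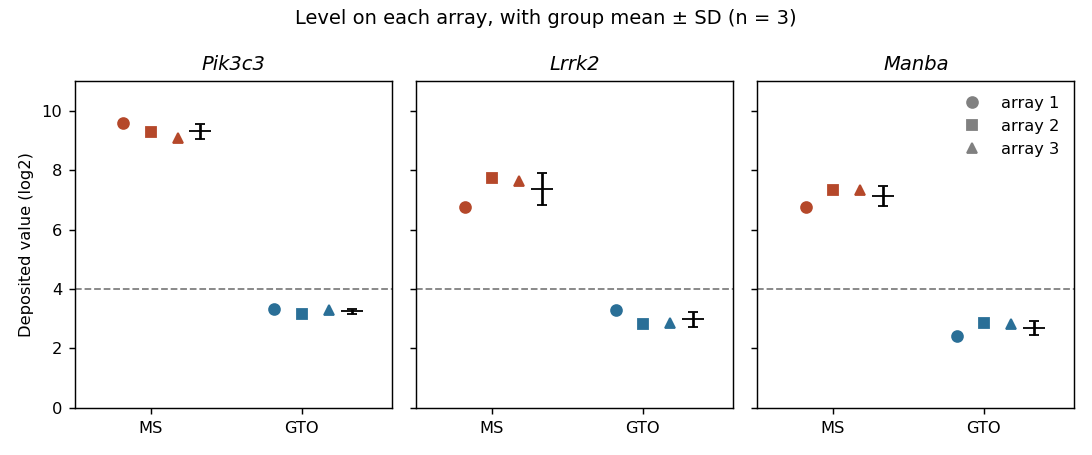
Points are the deposited log2 values of Pik3c3, Lrrk2 and Manba on each of 3 MS and 3 GTO arrays, with the array number as the marker shape, and black bars are group means ± SD (n = 3). The dashed line is the floor at log2 4: the MS values lie between 6.76 and 9.58, and the 9 GTO values between 2.42 and 3.32, all under the line.

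All 3 members passed the filter on low values, through the MS arrays alone, and for all 3 every MS array was above every GTO array. That separation was found for 9.9% of the 16256 probe sets tested and for 94.6% of the 626 on the list, so it is shared by nearly all listed probe sets and nothing is read from it. All 3 were under log2 4 on every GTO array, as were 207 of the 626 listed probe sets (33.1%). In a limma fit over the 16256 probe sets, 3 (0.0185%) were higher in MS at an adjusted p under 0.05. The contrast is the one that chose the members, so no call of theirs is given. Without any 1 of the 6 arrays limma called 0 probe sets, with 622 to 1759 at an unadjusted p under 0.05.

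Within a class the 3 genes did not follow the same order of arrays. Pik3c3 was highest on MS array 1, 0.26 above its MS mean, and lowest on MS array 3, at -0.23 from it. Lrrk2 and Manba were both lowest on MS array 1, at -0.63 and -0.38 from their MS means, and higher on MS arrays 2 and 3. On the GTO arrays, where all values are under the floor and have no order that can be relied on, deviations from the group mean were within 0.30.

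**Figure D3:**
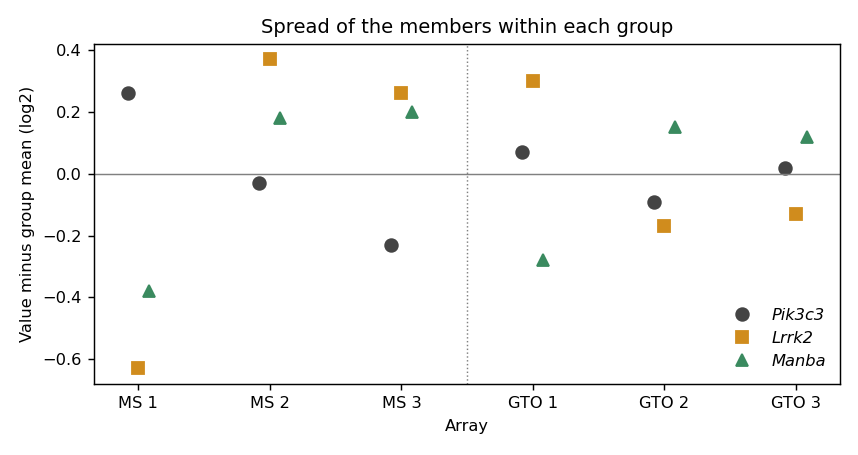
Points are the log2 values of Pik3c3, Lrrk2 and Manba minus the mean of their class on each array. MS array 1 holds the highest Pik3c3 value of the MS class (0.26 above the mean) and the lowest of Lrrk2 and Manba (-0.63 and -0.38 from the mean).

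Over the 6 arrays the members' levels had Pearson correlations of 0.981 (Pik3c3 and Lrrk2), 0.989 (Pik3c3 and Manba) and 0.990 (Lrrk2 and Manba). These are descriptions over 6 values that share arrays and a common split, and the median correlation of a member with the listed probe sets was 0.845 to 0.865, against 0.206 to 0.227 over all probe sets tested. Among listed probe sets with 1 symbol, the 3 most like Pik3c3 by this measure were those of Fiz1, a zinc finger protein (0.9989), Ctnna1, alpha-catenin (0.9972), and Pcmtd1, a protein with an isoaspartyl methyltransferase domain (0.9968). Fiz1 read 7.07, 7.08 and 6.80 on MS arrays 1, 2 and 3, against 3.62, 3.35 and 3.41 on GTO arrays 1, 2 and 3, the same split on a narrower scale. Fiz1, Ctnna1 and Pcmtd1 were lowest on MS array 3, as Pik3c3 was, but highest on MS array 2. The 3 most like Lrrk2 were Zfp93, a zinc finger protein (0.9984), Hs6st2, a heparan sulfate sulfotransferase (0.9961), and Fer, a tyrosine kinase (0.9955). Each of these was, like Lrrk2, lowest among the MS arrays on array 1: Zfp93 read 6.24, 7.53 and 7.31 on MS arrays 1, 2 and 3, against 3.24, 2.92 and 2.87 on GTO arrays 1, 2 and 3. They were picked by correlation over these same arrays, so nothing is read from the shared order. The 3 most like Manba were Nkain2, a protein that interacts with the sodium pump (0.9922), Ifi35, an interferon-induced protein (0.9918), and Baz2b, a bromodomain protein (0.9916). Baz2b read 7.45, 7.69 and 8.55 on MS arrays 1, 2 and 3, against 3.79, 3.88 and 4.10 on GTO arrays 1, 2 and 3, so its GTO values lay about the floor. Baz2b was lowest on MS array 1, as Manba was, whereas Nkain2 was lowest on MS array 3 (6.43) and Ifi35 on MS array 2 (7.22).

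The rest of the pathway was followed through 10 lists with 266 genes of autophagosome formation, phosphoinositide turnover, endosomal sorting, lysosomal enzymes and membrane proteins, and their control by mTORC1. Of these genes 12 (4.51%) stood on the authors' deposited list, 2 of which, Pik3c3 and Manba, were taken from it, while Lrrk2 itself was in none of the lists. Over all probe sets the share on the deposited list was 1.39%, but a gene can have several probe sets, and the share over all genes of the array was not analysed here, so nothing is read from the count. Lists of cell type markers held 4 of 72 (5.56%). Only listed probe sets can be given a gene name here and all of them were chosen as higher in MS, so absence from the list says nothing of a gene's level, and a gene higher in GTO could not stand on it. The 10 other genes had log2 differences of 2.54 to 4.66 with a median of 3.18, beside medians of 3.22 over the 626 listed probe sets and 0.31 over all those tested. For 9 of the 10 every MS array was above every GTO array, beside 94.6% of the listed and 9.9% of the tested probe sets. Neu1 and Tsc2 are among the 9 but were left out by the filter, so the share of tested probe sets does not cover them. Their lowest MS values, 3.48 and 3.78, were under the floor, as were their GTO values, so their separation cannot be relied on. Below log2 4 on every GTO array lay 5 of the 10, beside 33.1% of the listed probe sets, and 8 of the 10 passed the filter on low values.

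Manba's own list, of lysosomal glycosidases and other genes of glycan turnover, had 4 of 30 genes on the deposited list, Manba itself among them. Ids, the iduronate sulfatase of heparan and dermatan sulfate breakdown, read 7.78, 8.65 and 5.66 on MS arrays 1, 2 and 3, against 2.60, 2.77 and 2.73 on GTO arrays 1, 2 and 3. Its GTO values lay together near background while its MS values spread widely, with MS array 3 lowest. Gusb, the beta-glucuronidase, read 6.22, 7.98 and 8.90 on MS arrays 1, 2 and 3, against 4.85, 5.52 and 3.62 on GTO arrays 1, 2 and 3, and so was detected on 2 of the 3 GTO arrays. Neu1, the lysosomal sialidase, read 3.48, 6.55 and 7.58 on MS arrays 1, 2 and 3, against 2.53, 2.47 and 2.82 on GTO arrays 1, 2 and 3. Neu1 was under the floor on MS array 1 and was left out by the filter on low values. Gusb and Neu1 were thus lowest on MS array 1, as Manba was, and Ids was lowest on MS array 3.

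Of 25 genes of other lysosomal hydrolases and related proteins, 1 was listed. Ctsf, the cysteine protease cathepsin F, read 6.92, 6.31 and 5.07 on MS arrays 1, 2 and 3, against 3.09, 2.88 and 3.01 on GTO arrays 1, 2 and 3, at least 4.28-fold higher in MS against the floor. Of 44 genes of the lysosomal membrane, acidification and transport, Atp6v1d, a subunit of the proton pump that acidifies lysosomes, was listed. It read 12.09, 11.84 and 10.63 on MS arrays 1, 2 and 3, against 8.78, 10.26 and 7.79 on GTO arrays 1, 2 and 3. Atp6v1d was well above the floor on all 6 arrays, and its lowest MS value was close to its highest GTO value.

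Pik3c3's own complexes had no other listed gene: 1 of 12 genes was on the list, and of 30 genes of autophagosome formation and conjugation 0 were. Among 22 kinases and phosphatases of endosomal and lysosomal phosphoinositides, 2 were listed. Pi4k2a, a kinase that makes PI4P on endosomes and the trans-Golgi network, read 9.74, 9.70 and 6.94 on MS arrays 1, 2 and 3, against 5.32, 5.60 and 2.14 on GTO arrays 1, 2 and 3. Ocrl, an inositol phosphatase that is mutated in human Lowe syndrome, read 9.51, 9.19 and 8.20 on MS arrays 1, 2 and 3, against 7.97, 4.58 and 4.45 on GTO arrays 1, 2 and 3. For Ocrl the GTO array 1 value was almost at the level of MS array 3, whereas the other two GTO values were far lower. Among 35 genes that bind PI3P or sort and tether endosomes, Snx5, a sorting nexin of the retrograde route to the Golgi, was listed. It read 6.10, 7.93 and 6.0 on MS arrays 1, 2 and 3, against 3.13, 3.07 and 3.27 on GTO arrays 1, 2 and 3, at least 6.39-fold higher in MS against the floor.

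Lrrk2's list, with its paralogue, its Rab substrates and its partners, had 0 of 23 genes on the deposited list. Of 33 genes that control lysosome transcription and mTORC1, 2 negative regulators of mTORC1 were listed. Tsc2, the GTPase-activating protein for Rheb, read 5.70, 6.54 and 3.78 on MS arrays 1, 2 and 3, against 2.93, 3.44 and 1.72 on GTO arrays 1, 2 and 3, and was left out by the filter on low values. Depdc5, a subunit of the GATOR1 complex, read 8.14, 8.26 and 7.02 on MS arrays 1, 2 and 3, against 7.08, 4.39 and 4.32 on GTO arrays 1, 2 and 3. Depdc5 was the gene of the 10 whose classes overlapped, since GTO array 1 read above MS array 3.

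**Figure D4:**
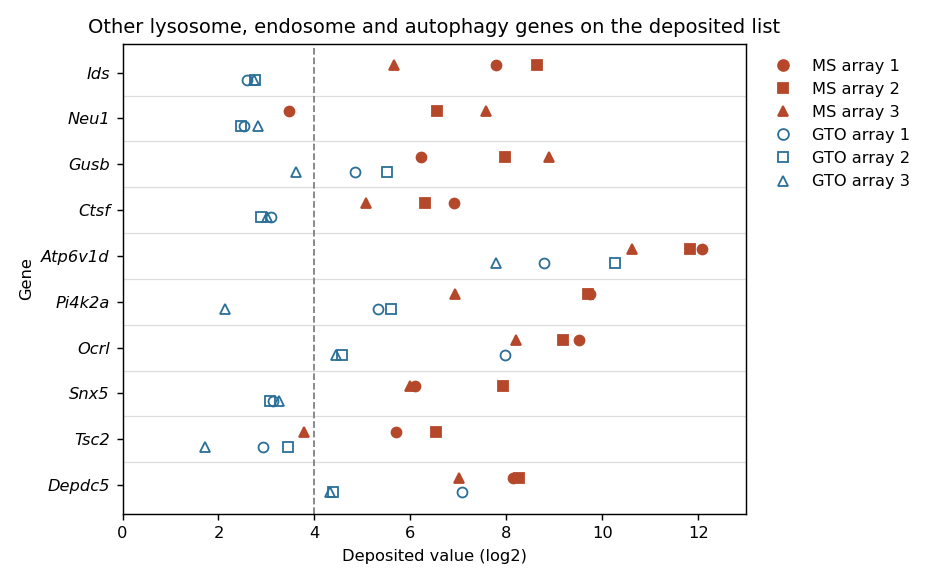
Points are the deposited log2 values of the 10 other listed genes of the pathway lists, with filled red markers for the 3 MS arrays, open blue markers for the 3 GTO arrays, and the array number as the marker shape. The dashed line is the floor at log2 4, and MS and GTO values are separate for every gene except Depdc5 (7.02 on MS array 3 and 7.08 on GTO array 1). For Neu1 and Tsc2 the lowest MS value is itself under the line, so their separation cannot be relied on.

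Of the 10 genes, 8 were lowest among the MS arrays on array 3, and Gusb and Neu1 on array 1. MS array 3 had the lowest upper quartile of its class and was also the lowest over the whole deposited list. The listed probe sets averaged log2 7.87, 7.72 and 7.2 on MS arrays 1, 2 and 3. The share of listed probe sets lowest on MS array 3 was not analysed here, so nothing is read from the count. Pik3c3 was lowest on MS array 3 as well, and Lrrk2 and Manba on MS array 1. Of the 5 genes that reached the floor on a GTO array, Ocrl and Depdc5 were highest on GTO array 1, the GTO array with the highest upper quartile, and Gusb, Pi4k2a and Atp6v1d on GTO array 2. Whether the signal of an array sets these orders was not tested.

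CACGTG was found in 2 of the 12 promoters, those of Ctsf and Snx5, whose surroundings are shown with the motif in capitals (RefSeq, GRCm38.p6, 30 bases on either side).
Ctsf (chr19:4855056-4855121, plus strand): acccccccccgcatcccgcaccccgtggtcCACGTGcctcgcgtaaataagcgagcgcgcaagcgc
Snx5 (chr2:144270587-144270652, minus strand): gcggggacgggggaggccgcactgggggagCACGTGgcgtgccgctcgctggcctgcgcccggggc
The match began 79 bases before the transcription start of Ctsf and 50 bases before that of Snx5. It says nothing of whether a factor binds there in these neurons.

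Lysosomal enzymes are also abundant in macrophages, and other cells of the ganglion could enter a sort. Of 12 macrophage markers 0 were listed, which leaves their levels unknown. Of 10 Schwann cell markers 1 was listed, Mbp, a protein of myelin, which read 6.03, 7.18 and 5.98 on MS arrays 1, 2 and 3, against 3.32, 2.49 and 2.65 on GTO arrays 1, 2 and 3. Of 8 fibroblast markers 1 was listed, Sparc, a matrix protein, which read 7.23, 9.32 and 9.13 on MS arrays 1, 2 and 3, against 3.20, 4.23 and 3.40 on GTO arrays 1, 2 and 3. Both stand on a list chosen as higher in MS, so their direction was fixed by that choice and nothing is read from it. Levels of the other Schwann cell and fibroblast markers are unknown here. The part of such cells in the members' values was not tested. Of the markers of satellite glia (8 genes) and of endothelium and pericytes (10 genes), 0 were listed. Of 12 markers of nociceptors and cutaneous mechanoreceptors 1 was listed, Gfra2, a neurturin co-receptor, which read 12.28, 12.43 and 12.19 on MS arrays 1, 2 and 3, against 11.43, 7.77 and 10.04 on GTO arrays 1, 2 and 3. Of 8 markers of proprioceptive neurons 1 was listed, Whrn, the scaffold protein whirlin, which read 3.15, 5.11 and 6.61 on MS arrays 1, 2 and 3, against 2.31, 2.35 and 2.28 on GTO arrays 1, 2 and 3. Whrn was under the floor on MS array 1 and on all GTO arrays and was left out by the filter on low values. Of the 4 genes on the list of class markers, Egr3 among them, 0 were on the deposited list, so their levels in the sorted neurons are unknown. The sorted identity was not checked here.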

How the data were processed

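Per the labels' protocols, RNA of sorted neurons was amplified before biotin labelling and measured on 6 single-channel arrays, 3 of MS and 3 of GTO neurons. The table deposited by the authors holds log2 values of 45101 probe sets. The submitters' processing notes name GCRMA and Partek, and quantiles differ between the deposited arrays. For 626 probe sets the authors also deposited a p-value and a fold ratio (MS over GTO), chosen per the file headers at 5-fold and p below 0.08. Recomputed folds matched the deposited ones within a relative deviation of 2.1e-05. Names came from the list alone, 591 probe sets with 1 symbol, of which 584 were updated through RefSeq (GRCm38.p6). Genes of other probe sets were not analysed here. Samples of a group are biological replicates per the labels.

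The 64 control probe sets were left out, and the 16256 of 45037 that reached log2 4 on 3 or more arrays were fitted in limma 3.58.1 (R 4.3.3, lmFit and eBayes, two-sided, no covariate, Benjamini-Hochberg 0.05), after tests on simulated data. The 3 arrays per group limit the precision. Named genes were the members, every other gene of the lists on the deposited list (1 gene of the pathway lists is not reported here and is left out of their counts), and the 3 listed probe sets most correlated with each member. The members, lists and rules were chosen with earlier results of these data known. Alternatives were quantile normalization, centring on the median of tested probe sets, other filters, an intensity trend, a floor, a replicate block, and leaving out arrays.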

Additional observations from a re-analysis of the deposited data

How the results depend on the processing

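The members were chosen as at least 5-fold higher in MS, so their direction could not turn under these alternatives and only the size of the log2 difference is given. It was 5.69 for Pik3c3, 4.03 for Lrrk2 and 4.07 for Manba under median centring, and 5.31, 3.38 and 3.14 with values under log2 4 set to log2 4. Leaving out 1 array gave 5.93 to 6.18 for Pik3c3, 4.21 to 4.71 for Lrrk2 and 4.30 to 4.63 for Manba. Against GTO array 1 alone, chosen after the data had been seen, it was 5.99, 4.10 and 4.72. With the highest spike-in value in place of log2 4, the lower bound for Manba was 19.0; the GTO means of Pik3c3 and Lrrk2 were above that value, so theirs became the plain folds of the means, 66.8 and 21.1, which are no bounds. Quantile normalization moved the median of all tested differences by -0.29, and centring moved it by -0.37.

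The limma count of 3 probe sets higher in MS was 11 with no filter, 10 with the filter at log2 6, and 0 with the intensity trend (1324 at an unadjusted p under 0.05) or median centring (1213). Each fit without 1 of the 6 arrays called 0. With the replicate number as a block it was 0 (1401 at an unadjusted p under 0.05). Deviations of same-numbered arrays from their group means had correlations of -0.0591, 0.102 and 0.111. MS arrays 2 and 3 correlated best with the GTO array of their own number, and MS array 1 with GTO array 2. These values cannot settle whether the arrays are paired. The labels name no covariate, so the main fit used no pairs. The rule of the list gave 400 probe sets under quantile normalization, 376 with GTO array 1 alone (the spread then being that of the MS arrays only), and 438 to 936 without 1 array. The 1610 separated probe sets became 1046 under quantile normalization, 926 under centring, and 1932 to 3171 without 1 array. The highest counts were without MS array 3 (3010), GTO array 1 (3171) and GTO array 2 (3065). Every count without 1 array has fewer arrays left to overlap. Why these were highest, and the causes of the other changes, were not tested. Values under log2 4 cannot give the size of a difference, which is why folds are bounds.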
